A study of Orbicella faveolata with 56 samples.

Results

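The genes described here are 300 of the 87440 rows of the host table of the reef-building coral Orbicella faveolata: each was at 0 in every library of at least 1 coral genotype and well expressed in at least 2 others. A row is a transcript entry of an assembled transcriptome. Any suffix naming a transcript form (isoform) was dropped from its identifier. No rows were summed, since each identifier then stood for a single row. Levels are given in CPM, the estimated count scaled to the library's total over all host rows. A genotype was said to lack a row when the count was exactly 0 in all of its libraries, and to carry it when the row reached at least 5 CPM in all of them. Rows lacked by at least 1 of the 12 genotypes and carried by at least 2 others numbered 617, and the 300 with the highest mean CPM, called members, were kept. The members were thus chosen by their CPM in each genotype, so those levels and their split by origin are given as a description with no test.

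A coral colony grows by budding, so the fragments cut from it are copies of 1 animal and share its genotype, and they also house single-celled algal symbionts. Individuals of many species differ in whether a gene is present at all, in how many copies they hold, and in whether a present gene is transcribed. In a transcriptome assembled without a genome, diverged alleles or near-identical copies of a gene can be listed as separate identifiers. RNA levels alone do not separate these cases, and in whole tissue, fewer cells of a type and less RNA per cell cannot be told apart.

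Messenger RNA levels were read here in 55 libraries, each of a fragment of 1 of 14 corals of the Florida Keys, in a study whose title names heat tolerance after transplantation between reef sites. The 6 corals of offshore origin (C1 to C6, genotypes O1 to O6) all came from collection site IKO2, so origin and that site cannot be told apart. The 8 corals of inshore origin came from sites UKI1, UKI2 and UKI3 and carried 6 genotype labels: corals A3, A5 and A6 share In1, and B6, B1, B2, B3 and B4 are In2, In4, In5, In6 and In7. Each coral gave a fragment to an offshore and to an inshore transplant site at each of 32 and 30 °C, reached over 7 days and held for 6 days. The libraries used from corals of offshore origin were 6 at the offshore site at 32 °C, 6 there at 30 °C, 5 at the inshore site at 32 °C and 6 there at 30 °C, and from corals of inshore origin 8 in each of these conditions. For coral C3 at the inshore site the labels give a library at 32 °C, but the remaining column for that coral and site names the lower temperature, so it was not used. O3 is therefore read in 3 libraries, In1 has 12 and every other genotype has 4, and all genotypes but In1 are represented by 1 coral.

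Host totals lay between 2850075 and 7239229 estimated counts per library with a median of 5021488, so 1 count was worth 0.138 to 0.351 CPM. A count of 0 in all libraries of a genotype allows a level of up to 0.0535 CPM for In1, 0.211 CPM for O3 and 0.136 to 0.156 CPM for the others (3 counts over the genotype's summed total, counting error only). The most similar library was of the same genotype for 54 of 55 libraries; the exception was coral C3 (O3) at the offshore site at 30 °C, whose nearest library was of In2. That library and 6 others stood apart by a low mean correlation with the rest. Without all 7 of them, 717 rows passed the rule, and without the C3 library alone 636 did. The symbiont table's total made up 0.0510% to 26.8% of both totals. That table carries the name trenchii, so its total need not count every kind of algal symbiont in a coral. No gene name goes with any identifier in the files, so no function is given for any member and no marker genes could be read to check the labelled coral tissue.

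Of the 18941 rows carried by at least 2 genotypes, 10878 were carried by all 12, and the 617 rows that passed the rule were 3.26% (95% Wilson interval 3.01% to 3.52%, counting error only). The mean CPM of members over all libraries ran between 5.55 and 158 with a median of 10.2. The last member inside the limit, OFAVBQ_DN215587_c0_g3, averaged 5.55 CPM, and the first row outside it, OFAVBQ_DN201620_c0_g1, averaged 5.54. At the other threshold, the carrier level that decided entry was 5.01 CPM for the row just inside and 4.98 CPM for the row just outside.

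Absence from 1 genotype was the commonest case. Of the 300 members, 150 were lacked by 1 genotype, 56 by 2, 39 by 3, 21 by 4, 16 by 5, and 18 by 6 to 9. Carriers numbered 2 for 37 members, 5 for 50 and 11 for 5, and 13 members had no genotype in an intermediate state. The rule fixes that each member has genotypes at 0 and genotypes at 5 CPM or more, and the other genotypes could lie anywhere. Of 3600 pairs of a member and a genotype, 672 (18.7%) were at 0 in every library, 480 (13.3%) stayed under 1 CPM without being all 0, 813 (22.6%) lay between, and 1635 (45.4%) were carried. As genotype means, 472 pairs lay above 0 and up to 0.5 CPM, 79 between 0.5 and 1 CPM, 112 between 1 and 2, 275 between 2 and 5, and 564 between 5 and 10 CPM. Counting every genotype under 1 CPM in all its libraries, 65 members were missing or nearly so from 1 genotype and 67 from 6 or more.

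**Figure D1:**
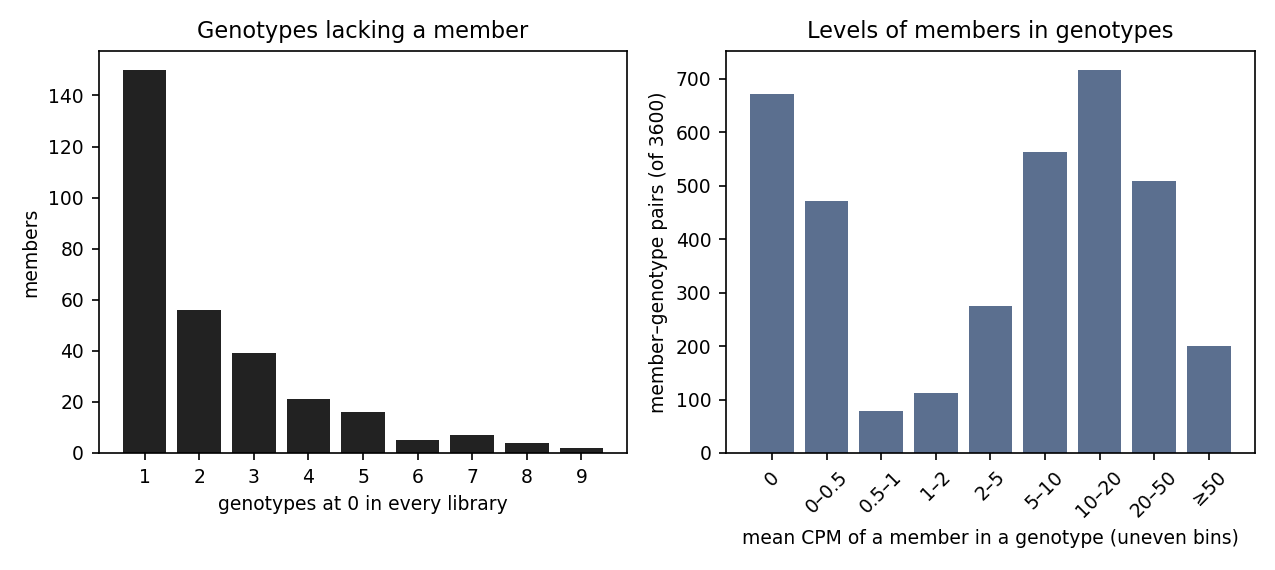
Left, the number of members (y axis) by the number of genotypes at 0 in every library (x axis). Right, the number of member-genotype pairs of 3600 (y axis) by the mean CPM of the member in the genotype (x axis, bins of uneven width); 672 pairs are at 0 and 717 between 10 and 20 CPM, and bar heights depend on the bin widths and on the rule.

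No member switched between lacked and carried with the environment. In none of the 12 genotypes was a member at 0 in all libraries of 1 temperature and at 5 CPM or more in all libraries of the other, or likewise for the transplant sites, though the rule itself keeps such cases few. A reading in libraries that the rule did not use came from choosing rows at 1 temperature alone. Rows chosen at 30 °C numbered 952, with 2685 absent pairs of row and genotype. In the 32 °C libraries, 2126 of these pairs (79.2%) were again at 0. The Wilson interval, 77.6% to 80.7%, takes in counting error only and treats pairs as independent, although they share rows and libraries. Of the same pairs, 2650 (98.7%) stayed under 1 CPM, and 9 (0.335%) reached 5 CPM in any library. Of the carrier pairs, 3310 of 3946 (83.9%) were at 5 CPM or more in all 32 °C libraries. Choosing at 32 °C gave 988 rows, and 2104 of their 2845 absent pairs (74%) were at 0 in all 30 °C libraries, with 2784 (97.9%) under 1 CPM and 6 (0.211%) at 5 CPM or more anywhere. The fragments are of the same corals, so this repeats the treatment and the library, not the genotype.

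The 3 corals of In1 gave a second reading, across animals that share a genotype label. With A3 standing for In1, 165 rows passed the rule and were lacked by A3. In A5, 104 of them (63%) were at 0 in every library and in A6, 115 (69.7%), against 27.9% to 41.8% in the 11 other genotypes. Allowing traces separated them further: 99.4% of the rows in A5 and 98.8% in A6 stayed under 1 CPM, against 41.8% to 57% in the other genotypes. Rows lacked by A5, 131 in all, were at 0 in 68.7% and 79.4% of cases in the other corals of In1, against 25.2% to 40.5% elsewhere. For the 147 rows lacked by A6 the shares were 61.2% and 78.2%, against 26.5% to 43.5%. In each case both corals of In1 lay above all 11 other genotypes, which include the carriers that the rule requires.

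**Figure D2:**
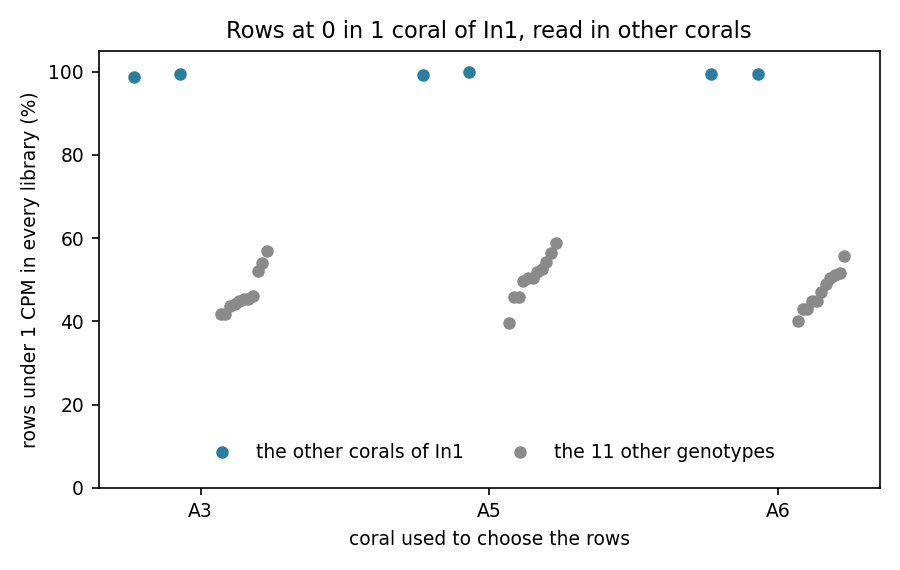
Share of rows (y axis, percent) that stayed under 1 CPM in every library when read in another coral, for rows at 0 in coral A3, A5 or A6 of In1 (x axis). Blue points are the other corals of In1 and grey points the 11 other genotypes; with A3, the blue points are at 98.8% and 99.4% and the grey points between 41.8% and 57%.

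Genotypes differed in how many members they lacked. Among those of offshore origin, O1 lacked 75, O2 60, O3 54, O4 63, O5 72 and O6 35. Among those of inshore origin, In1 lacked 19, In2 41, In4 64, In5 59, In6 72 and In7 58. O1, O5 and In6 thus lacked most and In1 fewest. In1 has 12 libraries, each of which must be at 0, where the others have 3 or 4. When In1 was represented by 1 coral, it lacked 51 (A3), 38 (A5) or 48 (A6) of the 300 rows then highest, within the range of the other genotypes. Members lacked by that genotype and no other numbered 20 for O2, 18 for O5, 17 for O1, 17 for In6, 16 for O4, 16 for In4, 15 for In5, 9 for In2, 7 each for O3, O6 and In7, and 1 for In1. Members at 0 in a given library numbered 38 to 103. The 38 came from 1 library of In1, A5 at the inshore site at 30 °C, where In1 libraries had a median of 65. In O3, C3 at the inshore site at 30 °C had 66, against 91 and 88 at the offshore site at 30 and 32 °C. A genotype cannot lack more members than its library with the fewest zeros, so single libraries also limit these counts.

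**Figure D3:**
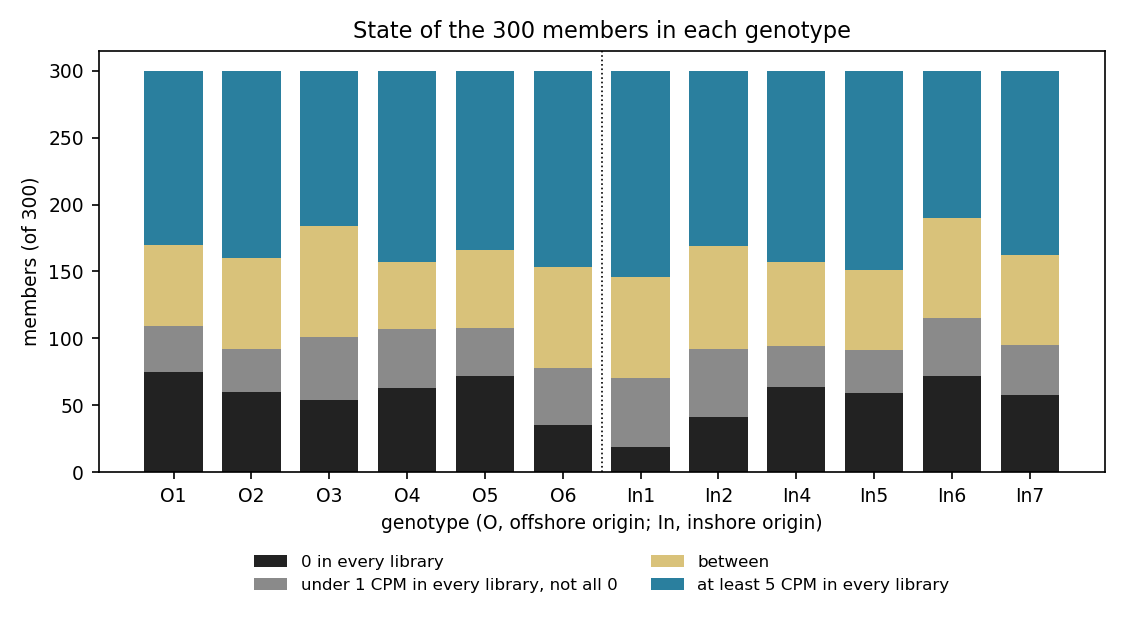
Number of the 300 members (y axis) in each of 4 states, stacked, for the 12 genotypes (x axis; offshore origin left of the dotted line, inshore origin right of it). The black part, at 0 in every library, is highest in O1 with 75 and lowest in In1 with 19.

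By origin, 106 members (35.3%) were lacked by offshore-origin genotypes alone, 77 (25.7%) by inshore-origin genotypes alone and 117 (39%) by genotypes of both. Most of the first 2 classes came from 1 genotype each, 85 of the 106 and 65 of the 77. Pairs at 0 made up 359 of 1800 (19.9%) in offshore-origin genotypes and 313 of 1800 (17.4%) in inshore-origin genotypes. Leaving In1 out, the inshore share was 294 of 1500 (19.6%). Absence seldom followed origin as a whole. Carriers of both origins were found for 266 members, carriers of offshore origin alone for 10 and of inshore origin alone for 24. All 6 offshore-origin genotypes carried 10 members and all 6 inshore-origin genotypes carried 6. No member was lacked by all 6 inshore-origin genotypes, and 1, named here after its values were seen, was lacked by all 6 of offshore origin. With under 1 CPM in every library as the bound, 6 members were missing from all 6 offshore-origin genotypes and 3 from all 6 of inshore origin. The member at 0 in all 6, OFAVBQ_DN215364_c0_g1, was also at 0 in In4, In5 and In6, lay between 1.37 and 45.1 CPM in In7, and was carried by In1 at 15.4 to 120 CPM and by In2 at 5.28 to 6.97 CPM.

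Pairs of genotypes shared similar numbers of absences within and across origins. The median pair of offshore-origin genotypes lacked 15 of the members together, which was 12.8% of those lacked by either. For pairs of inshore origin the median was 12 members (12.5%), and for pairs of different origin 14 (13%). In5 and In6 had the highest share, 23 members lacked by both, which was 39% of those lacked by In5 and 31.9% of those lacked by In6. Of those lacked by either, the share for In5 and In6 was 21.3%, and the next were In5 and In7 (20.6%) and In6 and In7 (20.4%), also of inshore origin. In6 and O5, of different origin, followed at 20%, with 24 shared, or 33.3% of the members lacked by each. Pairs of In1 with another inshore-origin genotype stood at 4.05% to 10.7% and are included in the inshore median.

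The members of highest mean CPM in each class show the contrast. OFAVBQ_DN194548_c0_g1 was at 0 in all 4 libraries of In6, against 85.9 to 459 CPM in the 10 genotypes that carried it. In In1 it lay at 0 to 1.92 CPM in 12 libraries, with a median of 0.216 CPM, so that by the level of this row In1 stood with In6. The 1 other row of its assembly component separated them. That row, the member OFAVBQ_DN194548_c0_g2, was also at 0 in In6 but was carried by In1, and averaged 120 CPM in its carriers. OFAVBQ_DN206413_c10_g1 was formally lacked by O1 alone, but 7 genotypes were at or near 0: O1, O2, O3, In2, In5, In6 and In7 never exceeded 3.26 CPM, and without the C3 library at the inshore site at 30 °C they never exceeded 0.464 CPM. Its carriers were O4 at 188 to 219 CPM, O5 at 198 to 277, O6 at 143 to 461, In1 at 91.2 to 333 and In4 at 234 to 323, and no library of these overlapped the rest.

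OFAVBQ_DN211185_c0_g1 had the highest mean of all members, 158 CPM, and its genotypes formed graded levels. It was at 0 in all libraries of O5 and In4, at 1.36 to 2.31 CPM in In2, at 3.03 to 12.4 in O3, at 4.70 to 6.28 in O1, at 5.29 to 8.03 in O4 and at 13.1 to 16.2 in O2. The other 5 genotypes stood higher: O6 ranged over 95.4 to 237 CPM, In1 over 120 to 519, In5 over 264 to 373, In6 over 42.2 to 584 and In7 over 34.5 to 644. In2, O1, O4 and O2 kept narrow ranges and In6 and In7 wide ones. O1, O3 and O4 overlapped. O6 and In5 did not overlap each other, but each overlapped In1, In6 and In7.

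OFAVBQ_DN215801_c0_g2 was lacked by 7 genotypes with none between. All libraries of O1, O2, O3, In2, In5, In6 and In7 were at 0, against 47.4 to 82.8 CPM in O4, 80.1 to 93.8 in O5, 25.7 to 91.7 in O6, 9.82 to 93.7 in In1 and 91 to 146 in In4. The same 5 genotypes carried OFAVBQ_DN206413_c10_g1. OFAVBQ_DN228713_c0_g1 was carried by a pair of different origin, O6 at 19.2 to 289 CPM and In2 at 25.6 to 294, was at 0 in 7 genotypes and did not exceed 0.450 CPM in In1, In4 and In6. OFAVBQ_DN203675_c5_g1, at 0 in O1, O3, O5, In5 and In6, reached 63.9 to 309 CPM in In1, 10.1 to 77.3 in In4 and 5.85 to 64.9 in In7, and no more than 0.528 CPM in any library of O2, O4, O6 or In2.

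**Figure D4:**
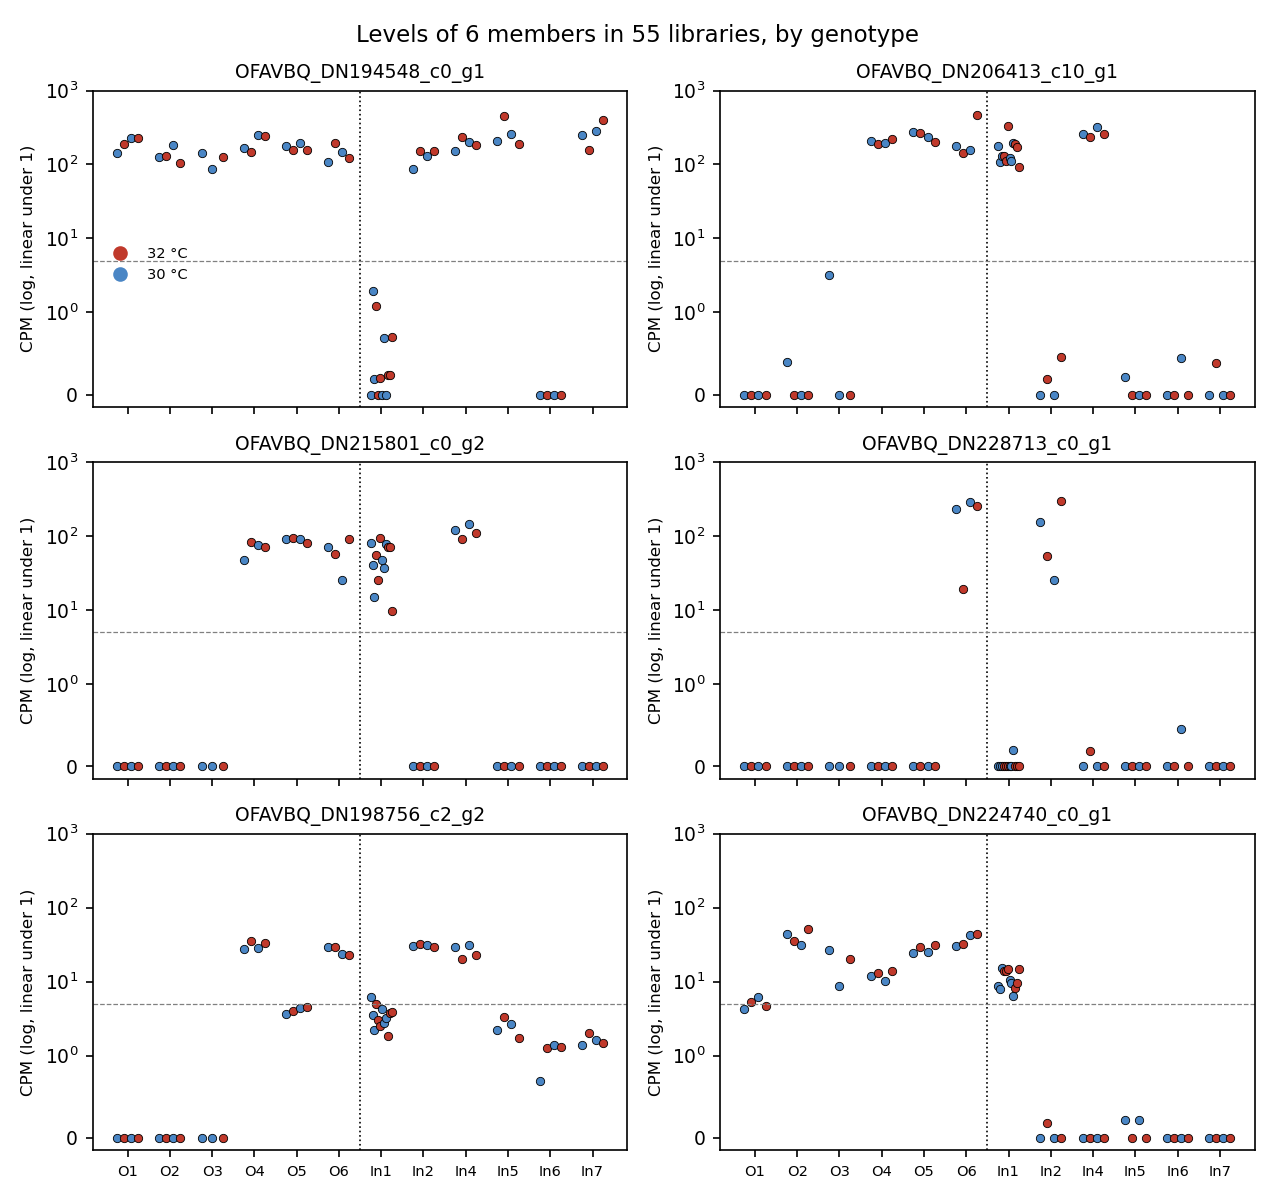
CPM of 6 members (panels; y axis on a log scale, linear under 1 CPM) in the libraries of each genotype (x axis; offshore origin left of the dotted line, inshore origin right of it), red at 32 °C and blue at 30 °C. The dashed line marks 5 CPM; OFAVBQ_DN215801_c0_g2 is at 0 in 7 genotypes and at 9.82 CPM or more in the other 5, with both temperatures on the same side in each genotype.

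A pair of members varied as widely within a genotype as between genotypes. OFAVBQ_DN200533_c3_g1 was at 0 in O1, O6 and In7. In In6 its 4 libraries spanned 4.56 to 2249 CPM with a median of 360 CPM, in In4 6.18 to 832 and in In2 2.32 to 994. OFAVBQ_DN196955_c3_g1 was at 0 in O1, O5, In2 and In5, and ranged over 18.1 to 2471 CPM in In6 but only 20.3 to 22.4 in O4 and 11.5 to 28.1 in In1. The highest In6 value of both rows was in coral B3 at the inshore site at 32 °C, 1 of the 7 libraries that stood apart. Over the 1635 carrier pairs, which by the rule hold no library under 5 CPM and so leave out several of these swings, the highest library exceeded the lowest by a median of 1.69-fold, and by more than 10-fold in 21 pairs.

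Between carriers, levels of most members differed more than within them. The highest carrier mean exceeded the lowest by a median of 2.60-fold (range 1.03 to 52.4), by more than 2-fold for 218 members and by more than 10-fold for 11. On the log2(CPM + 1) scale, the SD between carrier means had a median of 0.51 over members and the SD among libraries of a genotype a median of 0.32. The first was the larger for 227 of 300. Other carried rows were not read this way, so the difference is not shown to be particular to members.

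Members lacked by 3 or more genotypes of 1 origin alone were few, 4 for offshore and 5 for inshore origin. OFAVBQ_DN207555_c0_g3 was at 0 in O1, O2 and O3, and O4, O5, O6, In1, In2, In6 and In7 did not exceed 0.855 CPM. It was carried by In5 at 59.3 to 384 CPM and In4 at 12 to 21.8. OFAVBQ_DN198756_c2_g2 was also at 0 in O1, O2 and O3 and had 2 further tiers, 0.689 to 6.24 CPM in O5, In1, In5, In6 and In7 and 20.4 to 35.5 CPM in O4, O6, In2 and In4, which did not overlap. Among those lacked by inshore-origin genotypes, OFAVBQ_DN224740_c0_g1 was at 0 in In4, In6 and In7 and at no more than 0.217 CPM in In2 and In5. It lay between 4.25 and 52.1 CPM in all 6 offshore-origin genotypes and at 6.32 to 15 CPM in In1, the inshore-origin genotype that kept it. OFAVBQ_DN191373_c0_g1 was at 0 in In2, In4 and In7 and varied from library to library elsewhere, with 4.90 to 251 CPM in O1 and 3.39 to 222 in In1.

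In1 lacked 19 members in 12 libraries of 3 corals, the zeros of greatest summed depth in the data. OFAVBQ_DN206693_c0_g4 was at 0 in all libraries of O4, O5 and In1, against 31.7 to 52.4 CPM in O2, 22.4 to 39 in O3, 17.8 to 28.1 in O1, 19.2 to 33 in In4 and 4.38 to 9.94 in In7. The 2 other rows of its assembly component summed to 293 to 581 CPM in the libraries lacking it. In its carriers they averaged 508 CPM, against 23.6 CPM for the member, so its 0 is a 0 for this identifier alone. OFAVBQ_DN219931_c2_g1 was at 0 in O5 and In1, at 0.390 to 0.773 CPM in In7, at 2.17 to 4.34 CPM in In2 and In5, and at up to 49.6 CPM in O2. The 1 member lacked by In1 alone, OFAVBQ_DN201653_c4_g1, named after its values were seen, stood at 0.362 to 2.04 CPM in In6 and at 6.99 to 37.3 CPM in the other 10 genotypes.

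Identifiers of the form component and g number tie rows of 1 assembly component together. Of the members, 197 (65.7%) had at least 1 other row in their component, against 52.9% of rows carried by at least 2 genotypes and 45.8% of all host rows. For 74 of the 197, the other rows summed to under 1 CPM in every lacking library, and for 53 they summed to at least 5 CPM in every one. With the c number dropped from the component as well, so that more rows were pooled, this balance turned round, to 66 and 104 of 245 members. In the main reading of 197 members, 1 CPM was added to each mean before the fold was taken. The other rows were then over 2-fold higher in lacking genotypes than in carriers for 18 members and over 2-fold lower for 62. Across the 12 genotypes, the correlation of a member with its other rows had a median of 0.18, against 0.19 for carried rows. It was under -0.5 for 24 of 197 members (12.2%) and for 512 of 9997 carried rows (5.12%), and over 0.5 for 67 members (34%) and 24.7% of carried rows. These points share libraries and depth, and the correlations are descriptions over 12 genotype means.

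In some components another row stood where the member was missing. For OFAVBQ_DN198756_c2_g2, the other row, OFAVBQ_DN198756_c2_g6, was high where the member was at 0. This row lay at 27.4 to 58 CPM in O1, O2 and O3. It ran at 1.01 to 5.80 CPM in O4, 1.99 to 3.97 in O6 and 2.47 to 3.62 in In2, where the member was highest, but at 24.7 to 35.8 in In4, which also carried the member. Among genotypes with intermediate levels of the member it lay at 5.31 to 6.05 CPM in O5 and 3.42 to 7.39 in In1, but at 15.9 to 38.6 in In5, In6 and In7. Across genotypes r was -0.77. The 2 components with the largest such difference were picked after their values were seen. OFAVBQ_DN222740_c0_g4 was carried by O1 at 51.2 to 58.4 CPM and In4 at 58.4 to 69.7, and the other 10 genotypes never exceeded 0.184 CPM. Its partner OFAVBQ_DN222740_c0_g2 was at 12.8 to 84 CPM in those 10, against 0 to 0.414 CPM in O1 and 0.375 to 0.540 in In4, and r over the component was -0.95. For OFAVBQ_DN189709_c2_g2, the member averaged 16.5 CPM in its carriers. The other rows of its component averaged 19.8 CPM in the genotypes that lacked it and 0.839 CPM in its carriers.

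The 300 members came from 283 components. Of 19 pairs of members in 1 component, 12 were lacked together by at least 1 genotype, 3 of them by exactly the same genotypes, and 7 had no genotype lacking both. OFAVBQ_DN199434_c1_g6 was at 0 in In7, where OFAVBQ_DN199434_c1_g5 reached 26.3 to 71.3 CPM. The second was in turn at 0 in O4, where the first reached 93.8 to 235 CPM. Each has 4 other rows in the component. Those of the first summed to 636 to 678 CPM in In7, so most of that level lay in rows other than the second. Those of the second summed to 120 to 262 CPM in O4. O2 carried both, at 81.5 to 136 CPM for the first and 31 to 54.7 for the second, and In1 held neither above 1.75 CPM. OFAVBQ_DN200533_c5_g1 was at 0 in O2 and In2, where OFAVBQ_DN200533_c5_g6 ranged over 1.69 to 76.5 and 6.87 to 14.5 CPM. OFAVBQ_DN200533_c5_g6 was at 0 in O4, O6, In5, In6 and In7, each of which had 4.53 CPM or more of OFAVBQ_DN200533_c5_g1. Each of these also has 5 other rows in the component. They summed to 4.51 to 207 CPM in libraries lacking OFAVBQ_DN200533_c5_g1 and to 8.68 to 188 CPM in those lacking OFAVBQ_DN200533_c5_g6.

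An estimated count that is not whole marks reads shared among rows. Of the values above 0, 38.7% were fractional among members, against 49.4% among rows carried by at least 2 genotypes and 42.1% among all host rows. Rows of near-identical sequence could have been split by the quantification, so a member's 0 is a 0 for that identifier. Members were also read against the symbiont table's share of each library. Over carrier libraries, the correlation of log2 CPM with the library's ratio of symbiont to host totals, also in log2, had a median of 0.0008, and its absolute value passed 0.7 for 6 members. Those 6 had few carrier libraries, 7 or 8 for all but OFAVBQ_DN209212_c1_g1, which had 15. Over all libraries the median was 0.04 and none passed 0.7. The ratio covers only the symbionts counted in that table, and a part of total symbiont load in these levels was not tested.

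Temperature was not used by the rule, and here members could be tested. At 32 against 30 °C, 19 of 300 members (6.33%) passed an adjusted p of 0.05, 9 higher and 10 lower, in edgeR's quasi-likelihood test with Benjamini-Hochberg adjustment over 35219 rows. Of all rows tested, 3.24% passed, 1.82% higher and 1.42% lower, and of rows carried by at least 2 genotypes 4.42%. At an unadjusted p under 0.05 the shares were 16% of members and 15.7% of all rows. The members' share was thus above the background at the adjusted threshold and near it at the unadjusted one, and the difference in shares was not tested. Their median log2 change was 0.01, equal to that of all rows at this precision, and the median absolute change was 0.15 against 0.11. The 19 calls fell to 0 with no replicate block and to 0 with a term for library numbers 1 to 16, all of which are at 30 °C, and to 9 without coral C6, 10 without A3 or C5, 11 without C2 and 12 without B2. Library number and temperature are therefore partly confounded.

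OFAVBQ_DN222534_c0_g1 rose with heat in the corals that had it. In coral B2 (In5) it was at 50.6 and 43.2 CPM at 32 °C, against 15.2 and 13.3 CPM at 30 °C. In C1 (O1) it was at 33 and 29.3 CPM at 32 °C, against 4.77 and 8.51 CPM at 30 °C, and in C2 (O2) at 18.2 and 19.5 CPM, against 7.32 and 7.38 CPM. In In1 the increase was smaller, 8.20 to 13.4 CPM at 32 °C against 7.13 to 10.1 CPM at 30 °C over 6 libraries each, and the groups overlapped. In6 and O6 lacked it, and In2, In7 and O5 did not exceed 0.410 CPM at either temperature. The log2 change was 0.95 (SE 0.161, edgeR adjusted p = 0.000457), with a higher mean at 32 °C in 10 of the 12 corals not lacking it. This member missed the threshold with the term for library numbers and with no replicate block, and passed it in 19 other fits. The change in offshore-origin minus that in inshore-origin corals was 0.75 (SE 0.319, edgeR adjusted p = 0.990).

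OFAVBQ_DN222891_c2_g1 also rose. In C4 (O4) it was at 14.7 and 13.4 CPM at 32 °C, against 5.97 and 5.49 CPM at 30 °C, in C2 (O2) at 6.69 and 5.07, against 0.174 and 0.803 CPM, and in B2 (In5) at 15.7 and 13.5, against 2.17 and 1.5 CPM. In B6 (In2) the order was the other way, 13 and 29.9 CPM at 32 °C against 113 and 41.6 CPM at 30 °C. In6 and In7 lacked it. The log2 change was 1.19 (SE 0.322, edgeR adjusted p = 0.0328), higher at 32 °C in 9 of 12 corals not lacking it. It missed the threshold without A3, B1, B2, C1, C2, C4 or C6, with log2 changes of 0.99 to 1.21. It also did so with the term for library numbers, with 1.55, and with no replicate block, with 0.98.

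The 2 largest falls were rows of 1 component. OFAVBQ_DN200533_c5_g5 was at 4.75 and 2.25 CPM at 32 °C in C2 (O2), against 101 and 13.4 CPM at 30 °C, and at 6.94 and 12.8 CPM in C6 (O6), against 73.2 and 23.5 CPM. In B4 (In7) the sites disagreed, with 24.7 CPM at 32 °C against 10.4 CPM at 30 °C at the offshore site and 13.9 against 28 CPM at the inshore site. Its log2 change was -1.56 (SE 0.273, edgeR adjusted p = 0.00156), lower in 7 of 10 corals not lacking it. With the term for library numbers it was -0.93 (edgeR adjusted p = 0.162). OFAVBQ_DN200533_c5_g6 was at 2.99 and 1.69 CPM at 32 °C in C2, against 76.5 and 9.63 CPM at 30 °C, and at 18.4 and 5.03 CPM in C5 (O5), against 33.1 CPM in both libraries at 30 °C. Its log2 change was -1.61 (SE 0.408, edgeR adjusted p = 0.0281), lower in 5 of 9 corals not lacking it. It missed the threshold without A3, B6, C2 or C5, with log2 changes of -1.91 to -1.12, and in DESeq2's Wald test, with -1.15. With the term for library numbers its change was -0.79 (edgeR adjusted p = 0.716).

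**Figure D5:**
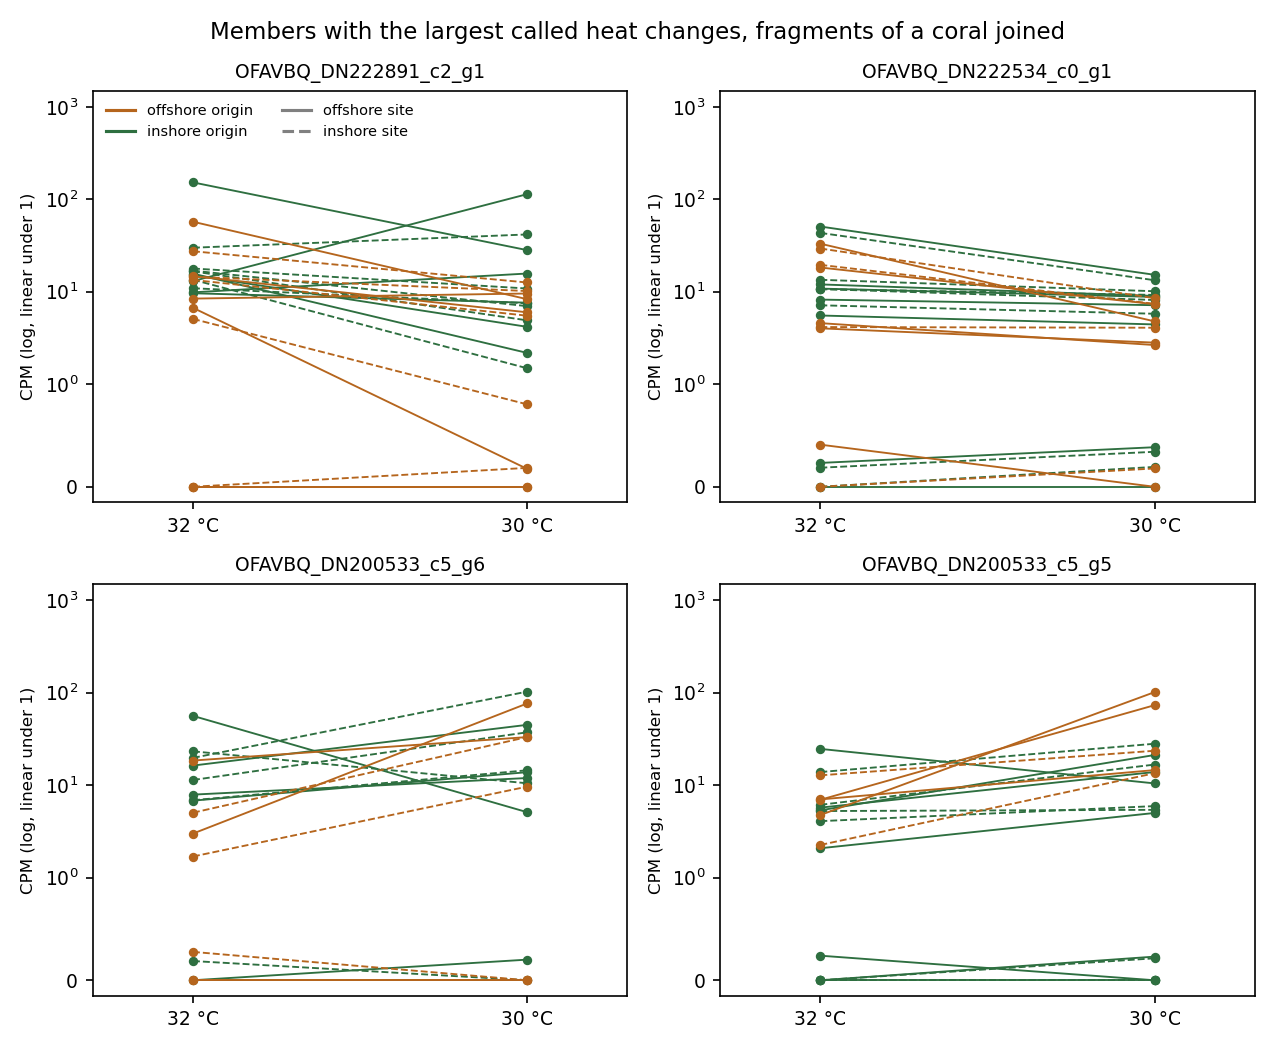
CPM (y axis, log scale, linear under 1 CPM) at 32 °C (left) and 30 °C (right) of the 4 members with the largest called heat changes, in genotypes that do not lack them; lines join the fragments of a coral at 1 transplant site (brown, offshore origin; green, inshore origin; solid, offshore site; dashed, inshore site). Coral C3 at the inshore site is not drawn, since its 32 °C library was not used here. OFAVBQ_DN222534_c0_g1 is highest in B2, with 50.6 and 43.2 CPM at 32 °C, against 15.2 and 13.3 CPM at 30 °C.

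The transplant site moved no member past the threshold. At the offshore against the inshore site, 0 of 300 members were called by edgeR and 0 by DESeq2, with 0.386% of all rows tested called by edgeR. At an unadjusted p under 0.05 there were 18 members (6%), against 5.51% of all rows. Without the 7 libraries that stood apart, without coral A6 or with no low-count filter, 1 member was called.

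The effect of site differed by origin for 1 of 300 members (0.333%), where 0.324% of all rows tested passed. At an unadjusted p under 0.05 there were 45 members (15%), against 8.67% of all rows. The site effect was higher in offshore-origin corals for 38 of them (12.7% of members), against 5.65% of all rows. It was lower there for 7 (2.33%), against 3.02%. All rows thus leaned the same way, and the difference in shares was not tested. OFAVBQ_DN221966_c2_g1 was the called member. In offshore-origin corals it was higher at the offshore site: C4 (O4) had 67.1 and 73.6 CPM there, against 49.7 and 44.3 CPM at the inshore site, and C1 (O1) had 29.4 and 26.1, against 17.6 and 18.6 CPM. The inshore-origin coral B1 (In4) had 38 and 38.8 CPM at the offshore site, against 58.1 and 51 CPM at the inshore site. O3, In5 and In7 lacked it. The difference of site effects, offshore minus inshore origin, was 0.93 on the log2 scale (SE 0.211, edgeR adjusted p = 0.0366). It missed the threshold without A5, B1, B2, B3, C1, C2, C4, C5 or C6, with differences of 0.85 to 0.98, and without the 7 libraries that stood apart, with 0.83. It also did so with the symbiont ratio as a term, with 0.77, and with no replicate block, with 0.88.

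The effect of heat did not differ by origin past the threshold for any member in edgeR or DESeq2, and 0% of all rows tested passed in edgeR. At an unadjusted p under 0.05 there were 25 members (8.33%), against 4.99% of all rows.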

How the data were processed

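The authors deposited a host and a symbiont table of estimated counts without normalization, judged from the deposited values, of which 74.7% (host) and 99.3% (symbiont) were whole. The submitters' processing notes name Trimmomatic 0.36 and RSEM, whereas the tables carry the name kallisto; neither the assembly nor a quantifier version is given in the sources used here. Stranded mRNA libraries were made from total RNA, per the labels' protocols. One column per table (1 in each) was left out, because it names 30 °C for coral C3 at the inshore site, where the only label without a column gives 32 °C; this left 55 libraries and takes 1 from O3.

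CPM divided each estimated count by its column sum (pandas 2.3.3, Python 3.11.15). Counts were rounded to whole numbers for edgeR 4.0.16 in R 4.3.3. TMM factors and filterByExpr (8 groups, minimum count 10) preceded a quasi-likelihood fit over all rows, with 3 conditions within each origin, 35 residual degrees of freedom and an adjusted p threshold of 0.05. Coral was a block, since the labels give all its fragments 1 coral name, and p-values therefore measure the spread among these fragments. Corals A3, A5 and A6 entered as 3 blocks and are counted as 3 corals in the numbers changing in 1 direction. In1 therefore weighs more than any other genotype in the fits and in these numbers. The script was tested on simulated data. All 300 members entered the fit, partly through the genotypes where they are high. A library stood apart when its mean correlation fell more than 3 scaled median absolute deviations under the median library. The 2 most alike libraries within a group still differed beyond counting noise (chi-square per degree of freedom 4.00).

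Members were named by rule: the 2 of highest mean CPM among those lacked by 1, by 2 to 3, by 4 to 6 and by 7 or more genotypes, those lacked by 3 or more genotypes of 1 origin alone, and those lacked by In1; the 2 largest called rises and falls per test; the 2 highest pairs in 1 component with no genotype lacking both; and the rows on either side of the limit. The members and these rules were chosen with earlier results of these data known. Alternatives changed the rule's thresholds, the libraries, the scaling and the model, and included DESeq2 1.42.0.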

Additional observations from a re-analysis of the deposited data

Results flagged for a closer look

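Of 68 groups of libraries or corals read for a value far from the others, 6 held one by Dixon's test. That test flags about 1 in 20 groups by chance where values are normally distributed, which was not checked here. In genotype O6, OFAVBQ_DN206413_c10_g1 stood at 461 CPM in coral C6 at the offshore site at 32 °C, against 143, 156 and 175 CPM in the other libraries of that genotype. In In4, coral B1 at the offshore site at 32 °C had 832 CPM of OFAVBQ_DN200533_c3_g1, against 6.18, 10.1 and 60.9 CPM. The same B1 library had 68.9 CPM of OFAVBQ_DN196955_c3_g1, against 10.9, 14.1 and 14.5 CPM. In O2, coral C2 at the inshore site at 32 °C had 217 CPM of OFAVBQ_DN200533_c3_g1, against 9.06, 9.83 and 16.2 CPM. In In6, coral B3 at the inshore site at 32 °C had 2471 CPM of OFAVBQ_DN196955_c3_g1, against 18.1, 19.9 and 96.3 CPM. The B1 and B3 libraries are among the 7 that stood apart, and all 5 of these values are at 32 °C; neither was tested as a source. Among inshore-origin corals, the log2 heat change of OFAVBQ_DN222534_c0_g1 was highest in B2, at 1.65. OFAVBQ_DN221966_c2_g1 differed between origins in its site effect by 0.93 (log2, edgeR adjusted p = 0.0366).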

How the results depend on the processing

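Rows passing the rule numbered 617, and 1498 with a carrier minimum of 2 CPM, 269 with 10 CPM, 1057 with at least 1 carrier genotype, 396 with at least 3, 952 at 30 °C alone, 988 at 32 °C alone, 1356 when a lacking genotype had only to stay under 1 CPM (added after the data were seen), and 531 to 628 with each coral left out. With no upper number, the 300 members became 617. The other ways of choosing rows gave 620 to 786. Heat calls among members numbered 19, against 0 with no replicate block, 0 with the term for library numbers, 16 to 26 under the other models, and 9 to 24 with each coral left out. Calls for site numbered 0, against 1 with no low-count filter, 1 without the libraries that stood apart and 0 to 1 with a coral left out. Calls for site by origin numbered 1, against 0 with no low-count filter, no replicate block, the symbiont ratio as a term or without the libraries that stood apart, and 0 to 2 with a coral left out. Heat by origin stayed at 0 in every fit, 0 to 0 with a coral left out. No named change reversed its sign in any of these fits; the causes of the lost calls were not tested. Dropping the c number from components as well gave 245 members with other rows, against 197. With all libraries the median symbiont correlation was 0.04. Depth limits absence: a count of 0 in every library allows up to 0.211 CPM in O3, 0.0535 CPM in In1 and 0.156 CPM in the others.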
